A study of Mus musculus with 12 samples.

Results

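The metabolic and xenobiotic sensors of the liver are described here by 10 genes, chosen by name out of the 57180 genes in the tables: the bile acid receptor FXR (Nr1h4) and its partner SHP (Nr0b2), the xenobiotic receptors PXR (Nr1i2), CAR (Nr1i3) and the aryl hydrocarbon receptor (Ahr), the oxysterol receptor LXRα (Nr1h3), the fatty acid receptors PPARα (Ppara) and PPARγ (Pparg), the coactivator PGC-1α (Ppargc1a), and RXRα (Rxra). All 10 were expressed and all 10 passed the filter on low counts. RNA sequencing covered the livers of 12 mice after removal of ribosomal RNA, with 3 mice in each group defined by genotype and sex. Every mouse, in both genotypes, lacked Csa (listed as Ercc8 in the annotation) and had been injected as a newborn into the brain ventricles with AAV9-CSA, a vector that expresses human CSA cDNA from the CBA promoter. The Het mice were Csa-/- Xpa+/- littermates of matched age. The KO mice, known as CX mice, were taken when they reached a humane endpoint. Their genotype is written Csa-/- Xpa-/- where CX mice are defined and Csa-/- Xpa+/+ in the methods of the RNA sequencing. The ages of single mice and the time of day at which livers were taken are not given in the sources used here, and no untreated mice are among the samples, so the comparison is between treated KO and treated Het livers.

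Most of these proteins are ligand-regulated transcription factors. FXR, PXR, CAR, LXRα and the PPARs bind DNA as heterodimers with RXRα, a shared partner, and read out the bile acids, drugs, oxysterols and fatty acids that reach the hepatocyte. SHP has no DNA-binding domain, is induced by FXR and represses other receptors. The aryl hydrocarbon receptor belongs to a different family, pairs with ARNT and binds planar aromatic compounds. PGC-1α binds no DNA itself, coactivates several of these receptors, and is induced in the fasted liver by glucagon and cAMP.

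The labels were checked first, with counts scaled to library size (CPM). Xpa lay between 3.13 and 6.32 CPM in the 6 Het livers and between 0.99 and 1.82 CPM in the 6 KO livers. Each KO liver thus lay below every liver with 1 intact Xpa copy. Reads assigned to Ercc8 were between 5.12 and 8.76 CPM in Het livers and between 14.7 and 34.3 CPM in KO livers. Hepatocyte markers dominated every liver, with a summed level of 22850 to 37040 TPM (a measure that corrects for transcript length) in Het and 31840 to 49770 TPM in KO livers. Het_F_115 (named by genotype, sex and mouse number) stood apart in its clock genes, which were picked out after their values were seen. Dbp was 0.776 CPM in that liver and between 81.9 and 112.7 CPM in the other Het livers, and Bmal1 was 28.3 CPM against 1.097 to 3.08 CPM. Results are therefore also given without Het_F_115 where it mattered.

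The upstream sequences of 4 genes are shown because Nr1h4, Ppara and Nr0b2 were lower in KO livers and Ppargc1a varied most between livers. They are the 250 bases before the start site, 5′ to 3′ on the gene's strand, from RefSeq promoters on GRCm38.p6, an older build than the GRCm39 of the counts. Capitals mark matches to AGGTCA (the nuclear receptor half-site), TGACG (the core of the cAMP response element) or CACGTG (an E-box, bound by clock factors), searched on both strands. The windows are chr10:89506659-89506908 (minus strand) for Nr1h4, chr15:85735526-85735775 (plus strand) for Ppara, chr5:51567726-51567975 (minus strand) for Ppargc1a and chr4:133553126-133553375 (plus strand) for Nr0b2.
Nr1h4: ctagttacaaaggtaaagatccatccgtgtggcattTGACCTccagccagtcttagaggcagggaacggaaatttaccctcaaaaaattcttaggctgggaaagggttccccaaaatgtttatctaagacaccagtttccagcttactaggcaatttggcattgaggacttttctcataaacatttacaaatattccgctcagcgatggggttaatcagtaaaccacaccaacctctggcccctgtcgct
Ppara: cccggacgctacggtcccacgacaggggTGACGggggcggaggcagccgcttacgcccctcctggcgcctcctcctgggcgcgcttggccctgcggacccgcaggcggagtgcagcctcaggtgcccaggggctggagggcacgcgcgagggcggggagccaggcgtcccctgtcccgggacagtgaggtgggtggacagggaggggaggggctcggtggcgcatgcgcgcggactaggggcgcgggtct
Ppargc1a: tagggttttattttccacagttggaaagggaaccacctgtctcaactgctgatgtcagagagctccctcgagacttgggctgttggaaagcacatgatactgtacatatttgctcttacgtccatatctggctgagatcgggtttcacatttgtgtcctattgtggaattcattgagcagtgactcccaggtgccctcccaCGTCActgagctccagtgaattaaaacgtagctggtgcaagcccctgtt
Nr0b2: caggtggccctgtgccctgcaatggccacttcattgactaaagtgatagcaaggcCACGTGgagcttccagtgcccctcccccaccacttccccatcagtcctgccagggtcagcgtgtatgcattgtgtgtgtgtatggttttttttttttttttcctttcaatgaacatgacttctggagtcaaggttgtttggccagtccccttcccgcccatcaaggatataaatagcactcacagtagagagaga
Nr1h4 held 1 half-site, 214 bases before the start. Ppara and Ppargc1a each held 1 TGACG, 222 and 49 bases before the start, and Nr0b2 held 1 E-box, 195 bases before it. Over the 32851 RefSeq windows of 300 bases (250 before to 50 after the start), 16.3% held a half-site, 20.8% a TGACG and 7.15% an E-box, so each match is a description of these letters only. Of the 2 windows each of Nr1h3 and Rxra, 1 of Rxra held 2 half-sites, 87 and 48 bases before the start, and the others held no match. The Ppara window was rich in G and C, at 74.7% of its 300 bases against a median of 52.7% over all windows, while that of Nr1h4 was at 45.7%. Windows matched 9 of the 10 genes, all but Ahr.

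In the livers of KO mice edgeR called 5 of the 10 genes lower and none higher, with both sexes combined. These were Ppara, Nr1h4, Nr0b2, Nr1h3 and Rxra. Over all 19355 genes tested, 10.3% were called lower and 11.4% higher in that comparison (a Benjamini-Hochberg adjusted p under 0.05 over all genes by the quasi-likelihood test of edgeR). DESeq2 called 6 of the 10, with Ppargc1a added as higher, and limma called 5. On log2(TPM + 1) limma called Ppargc1a higher and did not call Nr0b2. The tools are compared for Ppargc1a with that gene. The median log2 fold change of the 10 was -0.35, beside 0.008 over all genes. For 3 of the 10 (Ppara, Nr1h4 and Nr1h3) the KO livers all lay under the lowest Het liver, and for none did they lie above the highest, where 4.98% and 4.57% of all genes did so. Without Het_F_111, Het_F_126 or KO_M_122 the count of lower genes fell to 3, and Ppara, Nr1h4 and Nr1h3 were the ones that stayed. In bulk liver, fewer cells of a type and less RNA per cell cannot be told apart.

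**Figure D1:**
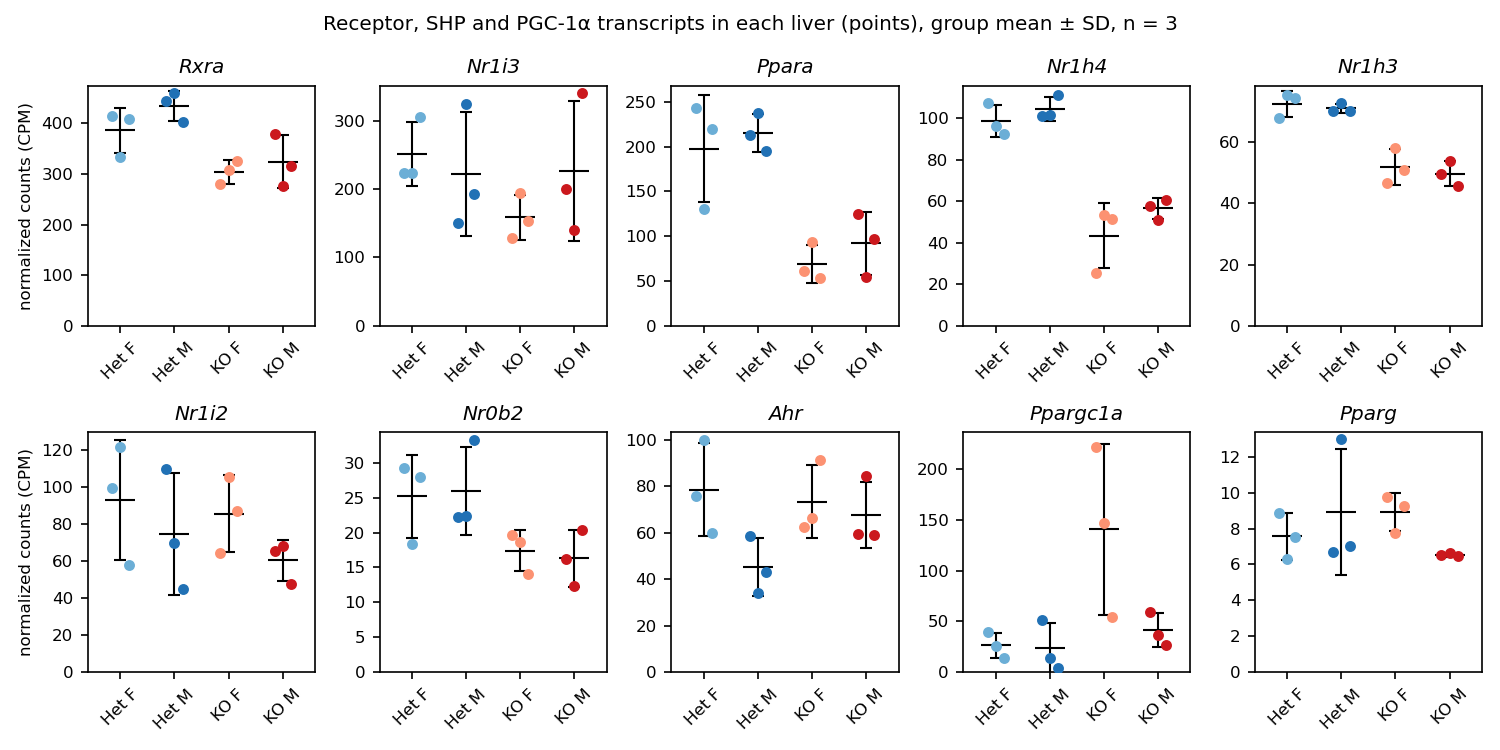
Normalized counts (CPM, y axis from 0) of the 10 genes in each of the 12 livers. Points are livers, horizontal marks the group mean and bars the SD (n = 3 mice per group). The lower bar of Ppargc1a in Het males is cut at 0. The KO points of Nr1h4, Nr1h3 and Ppara lie below all Het points, and Ppargc1a is high in KO females.

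FXR, which senses bile acids and holds down their synthesis, had the second deepest fall in transcript level. Nr1h4 (ENSMUSG00000047638.16, chromosome 10, 89289742 to 89369497 on the minus strand of GRCm39) was at 107, 96.3 and 92.5 CPM in Het females and 101, 102 and 111.3 CPM in Het males. It was at 25.4, 53.4 and 51.3 CPM in KO females and 57.7, 51.0 and 60.8 CPM in KO males. The Het livers were tight, the KO livers all lay lower, and KO_F_108 was lowest of all. The fitted level was 2.05-fold lower in KO livers, which is -1.04 ± 0.158 as a log2 fold change with its standard error (SE), at an adjusted p of 0.00126. It was -1.19 in females (adjusted p = 0.0112) and -0.89 in males (adjusted p = 0.0342), each from 3 against 3 livers in the same edgeR fit. Without KO_F_108 the log2 fold change over both sexes was -0.90.

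SHP, the repressor that FXR induces, was also lower. Nr0b2 (ENSMUSG00000037583.3, chromosome 4, 133280678 to 133283847, plus strand) was at 29.3, 18.3 and 28.03 CPM in Het females and 22.2, 22.5 and 33.3 CPM in Het males, against 19.7, 18.6 and 14.02 CPM in KO females and 16.2, 12.3 and 20.4 CPM in KO males. The genotypes overlapped through Het_F_115, the lowest Het liver, while in males all KO livers lay below all Het livers. The log2 fold change was -0.60 ± 0.170 (SE, adjusted p = 0.0264), and -0.69 without Het_F_115 (adjusted p = 0.0138). Neither sex passed the test by itself, with -0.53 in females (adjusted p = 0.171) and -0.67 in males (adjusted p = 0.119). The call was lost without Het_F_111, Het_F_126, Het_M_137, KO_F_123, KO_M_118 or KO_M_122, where the adjusted p was 0.0525 to 0.0645. On log2(TPM + 1) limma did not call it either. With all livers kept, the highest adjusted p over the other tools, scalings, filters and models was 0.0579.

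The genes that FXR and SHP act on gave calls in both directions. The list mixes genes that FXR induces, such as Nr0b2, with genes that SHP restrains, such as Cyp7a1 and Cyp8b1. Its median and counts therefore do not measure the activity of FXR. Of 18 listed FXR targets and bile acid genes, Nr0b2 among them, 17 were tested. By edgeR 1 was higher and 4 were lower in KO livers, with a median log2 fold change of -0.05. Over all genes 11.4% were higher and 10.3% lower, and these shares stand beside the counts of each list below over both sexes. DESeq2 called 4 higher and 4 lower, limma 3 or 4 higher and 3 lower, and edgeR without KO_F_108 3 higher and 4 lower, so the count of higher genes depended on the tool and on single livers. Lower were Nr0b2, Cyp7b1, the oxysterol hydroxylase of the alternative route of bile acid synthesis (-2.23, adjusted p = 1.73e-04), the canalicular bile salt export pump Abcb11 (-0.63, adjusted p = 0.0241) and, named after its value was seen, the basolateral bile acid importer Slc10a1 (-0.54, adjusted p = 0.0330). Cyp7b1 was at 22.2 to 66.7 CPM in Het and 13.2 to 18.2 CPM in KO females. In males, where the Het level was higher, it was at 253 to 384 CPM in Het and 37.2 to 45.5 CPM in KO livers. The calls of Abcb11 and Slc10a1 were lost in 4 and 9 of the 12 fits without 1 liver. Higher was Slc51b, a subunit of the basolateral bile acid exporter, at 0.0654 to 0.299 CPM in Het livers and 0.710 to 1.39 CPM in KO livers, which is 2 to 9 counts per Het liver. Its partner subunit Slc51a was below the filter, with 0 to 4 counts in any liver.

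Both hydroxylases that SHP restrains spread widely between mice. Cyp7a1, the rate-limiting enzyme of the classical route, ranged from 44.7 to 612.7 CPM in Het livers and from 70.7 to 222.7 CPM in KO livers, and its log2 fold change was 0.06 ± 0.50 (SE, adjusted p = 0.945). Cyp8b1, which makes cholic acid, had a log2 fold change of -1.23 (adjusted p = 0.126). The number of lower genes in this list was 1 to 4 when single livers were left out. It was 2 without Het_F_111, Het_F_115, Het_M_137, KO_F_112, KO_M_122 or KO_M_136, and 1 without KO_M_118.

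**Figure D2:**
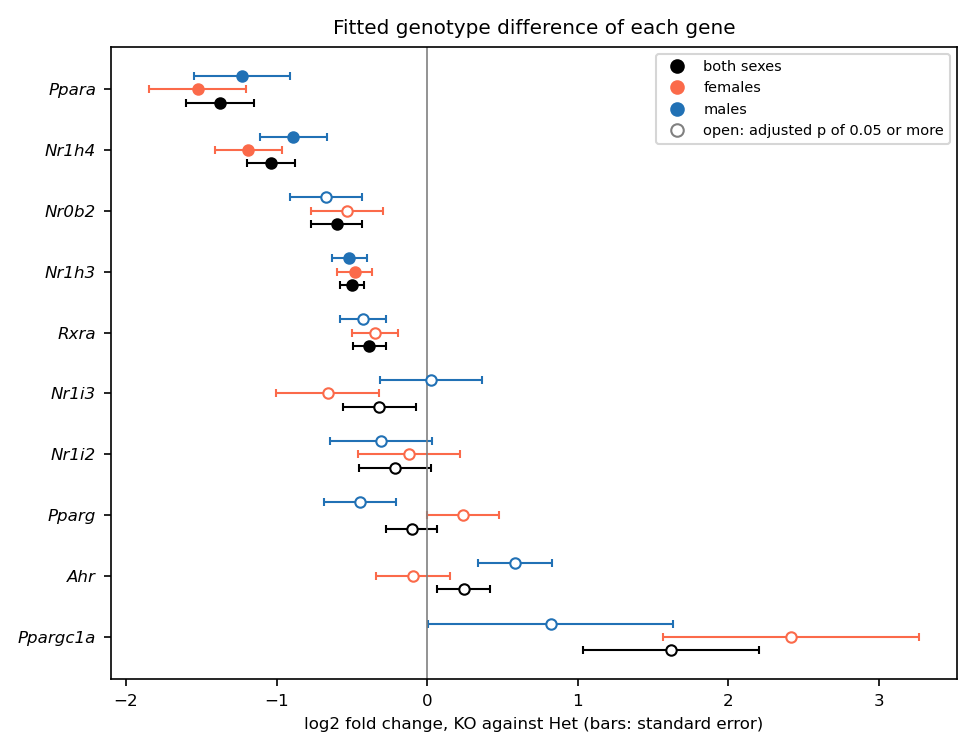
Fitted log2 fold change of KO against Het (x axis) with its standard error for the 10 genes (y axis, ordered by the value for both sexes). Black points are both sexes, orange females and blue males, and filled points have an adjusted p under 0.05. Ppara, Nr1h4 and Nr1h3 are filled in all 3, and Ppargc1a has the widest bars.

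PPARα, which drives fatty acid oxidation and ketone production in fasting, had the deepest fall of the set. Ppara (ENSMUSG00000022383.14, chromosome 15, 85618656 to 85687067, plus strand) was at 243, 131 and 220 CPM in Het females and 213, 238 and 196 CPM in Het males. In KO livers it was at 60.4, 92.8 and 53.0 CPM in females and 124, 54.0 and 96.9 CPM in males. The highest KO liver (KO_M_118) came close to the lowest Het liver (Het_F_115), which was the liver with the displaced clock genes. The log2 fold change was -1.38 ± 0.226 (SE, adjusted p = 0.00216), or 2.60-fold lower, and -1.49 without Het_F_115 (adjusted p = 0.00138). Females gave -1.52 (adjusted p = 0.0177) and males -1.23 (adjusted p = 0.0404).

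Most targets of PPARα fell. Of 33 listed targets, all tested, 25 were lower and 1 was higher in KO livers, with a median log2 fold change of -0.76. For 16 of them the KO livers all lay under the lowest Het liver, as for 4.98% of all genes. Acsl1, which activates long-chain fatty acids, went from 931 to 1724 CPM in Het livers to 222.7 to 533.2 CPM in KO livers (log2 fold change -1.56, adjusted p = 6.03e-04). The lipid droplet coat gene Plin2 fell by 1.60 on the log2 scale (adjusted p = 0.00418) and the ω-hydroxylase gene Cyp4a32 by 1.23 (adjusted p = 7.30e-04). Fabp1, the abundant fatty acid carrier of the hepatocyte, was named after its values were seen. It was between 1770 and 2750 CPM in Het livers and between 4.94 and 527 CPM in KO livers, and KO_F_108 again was lowest.

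Several classical targets did not pass the test. Cpt1a, the gate for fatty acid entry into mitochondria, had a log2 fold change of -0.05 (adjusted p = 0.878). The values were 0.34 for Cyp4a10 (adjusted p = 0.692), 0.29 for Cyp4a14 (adjusted p = 0.800) and 0.57 for Pdk4 (adjusted p = 0.527). In Het males Cyp4a10 was at 117 and 182 CPM in Het_M_119 and Het_M_137 and at 1220 CPM in Het_M_125. Cyp4a14 was at 28.2, 146 and 1137 CPM in the same livers. In females the genotypes overlapped for both genes. Without Het_M_125, only the low Het_M_119 and Het_M_137 stood for Het males. In that fit Cyp4a10 was at 1.22 (adjusted p = 0.0153) and Cyp4a14 at 1.45 (adjusted p = 0.0410). The single higher gene was Cyp4a31 (1.77, adjusted p = 0.0246), whose call was lost without Het_F_111, Het_F_115 or KO_M_118. Cyp4a genes are near-identical copies whose reads may be split between them. The hormone gene Fgf21 was low in all livers and lower in KO (-1.92, adjusted p = 0.0255), a call lost in 6 of the 12 fits without 1 liver. Without single livers the number of lower targets was 20 to 25 and that of higher targets 0 to 3, the 3 without Het_M_125.

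Calls in this list were more numerous in females than in males. In females 19 of the 33 targets were lower (4.90% of all genes were), with a median of -0.92, and in males 3 were lower (2.90% of all genes), with a median of -0.64. The difference between the sexes was itself tested and passed for none of the 33. By the unadjusted p 3 of them were under 0.05, and DESeq2 and limma on TPM also called none. DESeq2 called 26 of the 33 in females and 12 in males.

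**Figure D3:**
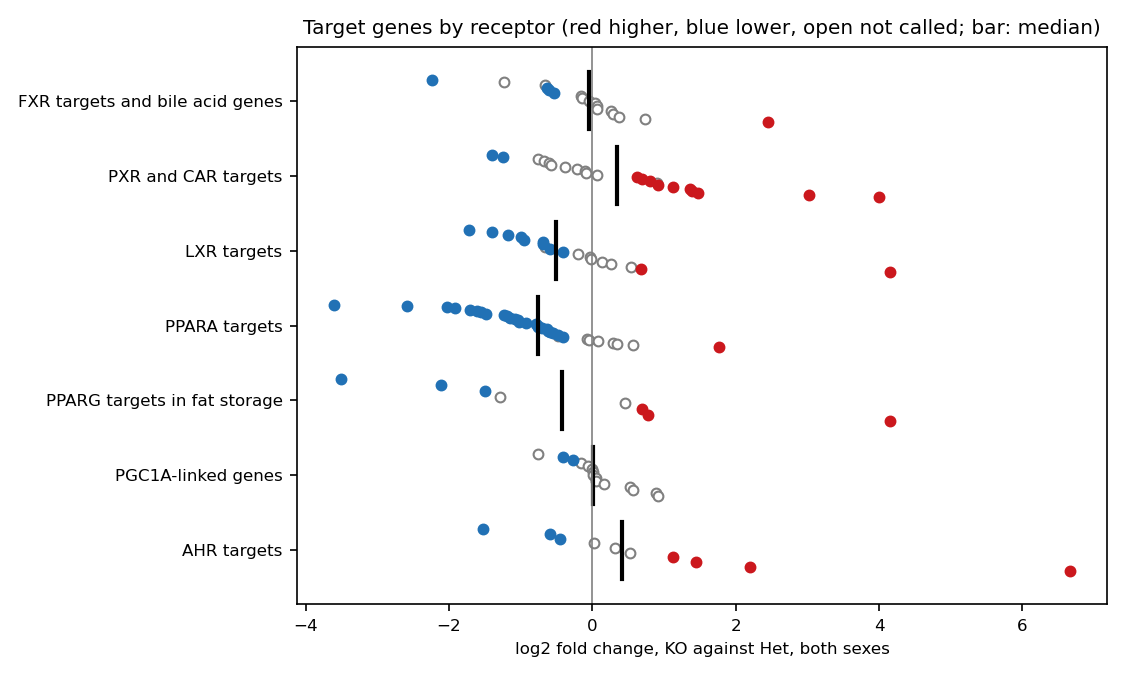
Log2 fold change of KO against Het over both sexes (x axis) for the tested genes of 7 target lists (y axis, genes spread by rank within a list). Red points were called higher, blue points lower, open points neither, and black bars are list medians. PPARA targets are mostly blue (25 of 33), and PXR and CAR targets hold 10 red and 2 blue points.

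LXRα, which answers to oxysterols and drives lipogenesis and sterol efflux, showed a small and uniform drop. Nr1h3 (ENSMUSG00000002108.11, chromosome 2, 91014394 to 91033417, minus strand) was at 67.8, 75.6 and 74.6 CPM in Het females and 70.3, 72.9 and 70.4 CPM in Het males. It was at 46.8, 58.3 and 51.0 CPM in KO females and 49.8, 53.8 and 45.6 CPM in KO males. The 2 genotypes did not overlap. The log2 fold change was -0.50 ± 0.0818 (SE, adjusted p = 0.00194), with -0.48 in females (adjusted p = 0.0263) and -0.52 in males (adjusted p = 0.0224). In each sex edgeR called 3 of the 10 genes lower and none higher, namely Ppara, Nr1h4 and Nr1h3, beside 4.90% lower and 4.93% higher over all genes in females and 2.90% lower and 4.01% higher in males. In females DESeq2 also called Ppargc1a higher (2.43, adjusted p = 0.0213).

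Of 18 LXR targets, 9 were lower and 2 higher, with a median log2 fold change of -0.50. The lower ones included the lipogenic regulators Srebf1 (-1.18, adjusted p = 0.00593) and Mlxipl (-0.69, adjusted p = 0.0122), and the desaturase Fads2 (-1.40, adjusted p = 0.0113). Abca1, the cholesterol efflux pump, had a log2 fold change of -0.02 (adjusted p = 0.940), and Abcg1 had 0.54 (adjusted p = 0.0529). Higher were Abcg5 (0.68, adjusted p = 0.0146), a subunit of the biliary sterol transporter and named after its value was seen, and Lpl. Lpl, the lipoprotein lipase that adult hepatocytes normally keep low, was between 10.7 and 16.2 CPM in Het livers and between 194.8 and 340.5 CPM in KO livers (4.15, adjusted p = 5.03e-07). In females 5 targets were lower (4.90% of all genes were) and in males 0 (2.90% of all genes), with 4 of the 18 lower in males by the unadjusted p. The difference between the sexes passed for none of the 18, with 5 under 0.05 by the unadjusted p and 0 called by DESeq2 or limma. In either direction, DESeq2 called 10 targets in females and 4 in males, and limma 10 and 2. The number of lower targets was 9 without KO_F_123, 8 without KO_M_122 and 6 without Het_F_115, Het_M_119, Het_M_125, Het_M_137 or KO_F_108. It was 5 without Het_F_111, Het_F_126 or KO_F_112 and 4 without KO_M_118 or KO_M_136.

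RXRα is the dimer partner of these receptors. Rxra (ENSMUSG00000015846.17, chromosome 2, 27566452 to 27653330, plus strand) was at 415, 334 and 409 CPM in Het females and 444, 460 and 403 CPM in Het males. It was at 279.5, 308 and 325 CPM in KO females and 380.0, 277 and 316 CPM in KO males. KO_M_118 lay above Het_F_115, and otherwise the genotypes were apart. The log2 fold change was -0.38 ± 0.108 (SE, adjusted p = 0.0256), with -0.34 in females (adjusted p = 0.162) and -0.42 in males (adjusted p = 0.120). The call was lost without Het_F_111, Het_F_126, Het_M_119, Het_M_125, KO_M_122 or KO_M_136, where the adjusted p was 0.0516 to 0.0656.

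Per transcript length (TPM), the order of the receptors differed between the genotypes. In Het livers the mean was highest for Nr1i3 (82.8 TPM), then Rxra (66.7), Ppara (60.1), Nr1h4 (39.7), Nr1h3 (31.7), Nr1i2 (25.1), Nr0b2 (18.7), Ahr (10.04), Ppargc1a (4.56) and Pparg (3.32). Each gene overlapped its neighbour in this order across livers, though Nr1h4, at 35.5 to 44.9 TPM, reached only the lowest Ppara value of 41.4 TPM. In KO livers Nr1i3 (75.6 TPM) and Rxra (51.2) led, and Nr1h3 (22.9), Ppara (22.4), Nr1i2 (21.9), Nr1h4 (19.5) and Ppargc1a (18.9) lay together with overlapping ranges. Among these 5, the single value above the lowest Rxra value of 44.6 TPM was that of Ppargc1a in KO_F_108, at 47.4 TPM.

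The partners of RXRα were then summed in each liver (Nr1h4, Nr1i2, Nr1i3, Nr1h3, Nr1h2, Ppara, Ppard and Pparg), as a description with no test. The sum was 211 to 296 TPM in Het livers (median 258) and 148 to 221 TPM in KO livers (median 177). Divided by Rxra it ranged from 3.29 to 4.31 across the Het livers and from 3.12 to 4.21 across the KO livers, so these ranges largely overlapped. Ppara made up 16.5% to 26.0% of the partner sum in Het and 8.91% to 18% in KO livers. Nr1h4 made up 13.4% to 19.8% and 6.94% to 13.1%, without overlap. Nr1i3 made up 24.1% to 38.5% and 37.0% to 54.7%.

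**Figure D4:**
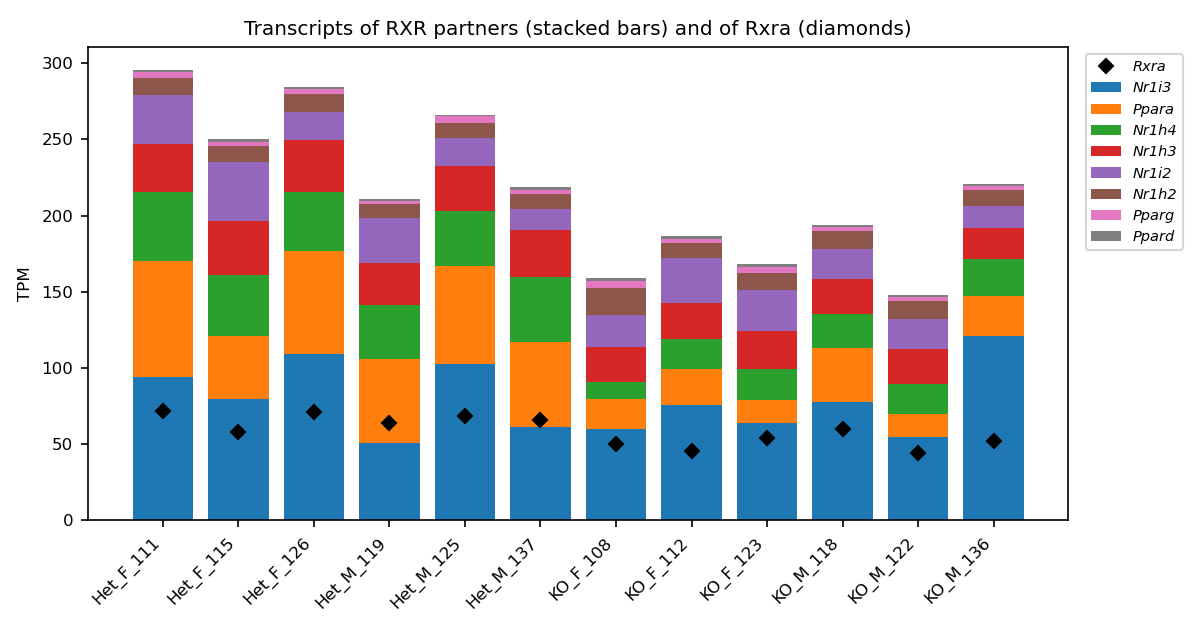
Transcript levels (TPM, y axis from 0) of the RXR partners, stacked in 1 bar per liver (x axis, named by genotype, sex and mouse number), with Rxra as black diamonds. Bars are lower in most KO livers, and the orange (Ppara) and green (Nr1h4) parts are thinner in KO livers than in most Het livers.

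The xenobiotic receptors themselves gave no call. PXR and CAR are activated by drugs and bile acids and induce detoxifying enzymes and transporters. Nr1i2 (ENSMUSG00000022809.5, chromosome 16, 38068685 to 38115216, minus strand) was at 99.8, 121.6 and 57.7 CPM in Het females, 110, 69.7 and 44.8 in Het males, 64.3, 106 and 87.1 in KO females and 65.5, 68.0 and 47.8 in KO males. The groups overlapped throughout (log2 fold change -0.21, standard error 0.24, adjusted p = 0.563). Nr1i3 (ENSMUSG00000005677.15, chromosome 1, 171041506 to 171048270, plus strand) was at 223, 224 and 305 CPM in Het females and 128, 194 and 153 in KO females, without overlap. In males it was at 149.9, 324 and 193 CPM in Het and 199, 140.1 and 339.9 in KO livers, with full overlap. Its log2 fold change was -0.66 in females (adjusted p = 0.230) and 0.03 in males (adjusted p = 0.973), and the difference between the sexes was 0.69 ± 0.48 (SE, adjusted p = 0.690).

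Their listed targets nonetheless included many calls. Of 22 PXR and CAR targets, 10 were higher and 2 lower in KO livers, with a median log2 fold change of 0.35, or 0.09 over the 21 with at least 10 reads in every liver. The glutathione transferase Gsta1 was at 0.499 to 5.72 CPM in Het and 11.4 to 26.6 CPM in KO livers (3.02, adjusted p = 4.62e-05). The basolateral efflux pump Abcc4 (1.39, adjusted p = 3.98e-04) and the oxidase Cyp3a13 (1.37, adjusted p = 4.02e-04) were also higher, and the carboxylesterase Ces2a was lower (-1.41, adjusted p = 8.18e-04). The marker targets of each receptor did not pass, with -0.21 for Cyp3a11 of PXR (adjusted p = 0.487) and -0.68 for Cyp2b10 of CAR (standard error 0.82, adjusted p = 0.596). Many of these genes belong to families of close copies (Cyp3a, Cyp2b, Gsta) whose reads may be split. The number of higher targets was 6 to 8 in the fits without 1 liver, and 6 without Het_F_111 or Het_M_137.

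The aryl hydrocarbon receptor was higher in each KO male than in any Het male, but no genotype difference passed the test. Ahr (ENSMUSG00000019256.18, chromosome 12, 35547973 to 35585057, minus strand) was at 75.8, 99.7 and 59.8 CPM in Het females and 58.6, 33.96 and 43.0 CPM in Het males. In KO livers it was at 62.2, 66.5 and 91.3 CPM in females and 59.6, 84.2 and 59.1 CPM in males. Het males were the low group, each below each Het female, and the KO groups overlapped with each other. The genotype difference was 0.24 ± 0.17 (SE, adjusted p = 0.347). In males it was 0.58 (unadjusted p = 0.0365 and adjusted p = 0.180 in edgeR) and in females -0.10 (adjusted p = 0.835). The male minus female difference in Het livers was -0.80 (unadjusted p = 0.00748 and adjusted p = 0.220 in edgeR).

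Of 11 AHR targets 10 were tested, of which 4 were higher and 3 lower, with a median log2 fold change of 0.42. That median was 0.05 over the 7 targets with at least 10 reads in every liver and 0.04 with limma on log2(TPM + 1), and an additive model called 2 higher. Nqo1, a quinone reductase that NRF2 also induces, was at 4.56 to 11.8 CPM in Het and 25.9 to 40.8 CPM in KO livers (2.20, adjusted p = 1.57e-06). Tiparp, a feedback repressor of the receptor, was at 7.30 to 16.3 CPM in Het and 9.56 to 73.6 CPM in KO livers (1.45, adjusted p = 0.0097), with the highest values in KO_F_112 and KO_F_108. The flavin monooxygenase Fmo2 was also higher (1.12, adjusted p = 0.0188). It was at 35.7 to 86.6 CPM in Het and 45.9 to 81.8 CPM in KO females, with overlap, and at 7.75 to 17.1 and 41.7 to 64.2 CPM in males. By edgeR the difference between the sexes in the KO effect passed for 1 of the 10 targets (0.0465% of all genes). In Het livers 3 of the 10 were lower in males than in females (0.449% of all genes). Cyp1a1, the most specific target, had a log2 fold change of 0.02 (adjusted p = 0.956), with 20 to 65 counts per liver. Cyp1a2 was lower (-1.52, adjusted p = 0.0273), a call lost in 6 of the 12 fits without 1 liver. The other lower genes, Ugt1a6a and Ugt1a6b, share exons and were named after their values were seen. The number of lower targets was 2 without Het_F_111, Het_M_119, Het_M_125, Het_M_137 or KO_M_118. It was 1 without Het_F_126, KO_F_112 or KO_M_136 and 0 without KO_M_122.

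PPARγ, the receptor of fat storage, had the lowest mean TPM of the set in both genotypes, though Ppargc1a was lower in 3 of the Het livers. Pparg (ENSMUSG00000000440.13, chromosome 6, 115337675 to 115468268, plus strand) was at 8.88, 6.29 and 7.53 CPM in Het females, 6.72, 12.98 and 7.04 in Het males, 9.78, 7.74 and 9.26 in KO females and 6.504, 6.63 and 6.46 in KO males. Only Het_M_125 stood out, and the genotypes overlapped (log2 fold change -0.10, standard error 0.17, adjusted p = 0.699). Of 11 fat storage targets, 8 were tested, with 3 higher (Lpl, Cd36 and Fabp4) and 3 lower (G0s2, Fabp2 and Mogat1). G0s2, an inhibitor of the triglyceride lipase, was at 30.9 to 106.0 CPM in Het and 1.25 to 7.25 CPM in KO livers (-3.51, adjusted p = 8.26e-04). Fabp2, an intestinal-type fatty acid carrier (-1.495, adjusted p = 0.0011), and Mogat1, a monoacylglycerol acyltransferase (-2.11, adjusted p = 0.00637), were also lower. The fatty acid importer Cd36 (0.77, adjusted p = 0.0154) and the carrier Fabp4 (0.70, adjusted p = 0.0385) were named after their values were seen, and the call of Fabp4 was lost in 6 of the 12 fits without 1 liver. Cidec, a lipid droplet fusion gene, had 0.46 (adjusted p = 0.597), and Cidea had 0 to 11 counts per liver and was not tested.

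PGC-1α had the widest spread of the set and, with both sexes combined, a difference larger than that of Ppara. This did not hold in males or without Het_M_137 or KO_M_118. Ppargc1a (ENSMUSG00000029167.14, chromosome 5, 51611592 to 51725068, minus strand) was at 39.3, 25.7 and 14.2 CPM in Het females and 51.7, 14.3 and 4.12 CPM in Het males. It was at 222, 147 and 54.0 CPM in KO females and 59.6, 37.1 and 27.1 CPM in KO males. All 3 KO females lay above all Het females, while in males the genotypes overlapped. The log2 fold change over both sexes was 1.62 ± 0.584 (SE, unadjusted p = 0.0202, adjusted p = 0.0762 in edgeR), which did not pass. It was 2.42 in females (adjusted p = 0.0973) and 0.82 in males (adjusted p = 0.600), and the difference between the sexes was -1.60 ± 1.15 (SE, adjusted p = 0.700). The call depended on the tool, since DESeq2 gave an adjusted p of 0.0222 and limma gave 0.0293 on log2(TPM + 1). Without Het_M_119, the highest Het liver, edgeR gave 2.29 (adjusted p = 0.0164).

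Genes linked to PGC-1α moved little as a list. Of 15 tested, edgeR called none higher and 2 lower, with a median log2 fold change of 0.007. By the unadjusted p 2 were higher. DESeq2 called 1 higher (Pck1) and 2 lower, and limma 0 higher and 1 lower. Without single livers edgeR called 1 higher (without Het_F_111 or KO_M_136), 2 higher (without Het_M_119) or none. The lower genes were Tfam, the mitochondrial transcription factor (-0.27, adjusted p = 0.0370), and Cycs, cytochrome c (-0.42, adjusted p = 0.0450), and these calls were lost in 9 and 11 of the 12 fits without 1 liver. Pck1, the gluconeogenic enzyme, was at 1224 to 5070 CPM in Het and 3409 to 9333 CPM in KO livers (0.89, adjusted p = 0.106 by edgeR and 0.0391 by DESeq2). It was highest in the KO females KO_F_108 and KO_F_112, which also had the highest Ppargc1a.

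A difference between the sexes in the KO effect passed the test for none of the 10 genes, where 0.0465% of all genes were called. No difference between males and females was called among the 10 in Het livers (0.827% of all genes) or in KO livers (0.0568% of all genes). By the unadjusted p, 0, 1 (Ahr) and 0 of the 10 were under 0.05 in these comparisons, and DESeq2 and limma called 0 in each. The interaction terms of smallest unadjusted p, for Pparg (-0.68, adjusted p = 0.581) and Ahr (0.68, adjusted p = 0.593), had standard errors of 0.34 and 0.35. A p that misses the threshold does not show that the sexes respond alike.

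Across the wider nuclear receptor superfamily, 42 of 49 listed genes were tested, 2 were higher and 11 lower, with a median log2 fold change of -0.10. The 5 receptors of the set described above are among the 11. The retinoic acid receptor Rarb (0.96, adjusted p = 4.14e-04) and the estrogen receptor Esr1 (0.91, adjusted p = 0.00216) were the 2 higher. Esr1 was at 47.3 to 81.1 CPM in Het and 61.4 to 92.1 CPM in KO females, with overlap. In males it was at 14.5 to 18.8 CPM in Het and 40.6 to 58.4 CPM in KO livers. The difference between the sexes in the KO effect passed for 0 of the 42. The number of lower receptors was 7 without Het_F_111, Het_F_126 or KO_M_122, and 8 to 11 without any other single liver. Among 25 coregulators, 2 were higher and 4 lower, where 11.4% of all genes were higher and 10.3% lower, and the changes were small. They included the methyltransferase Prmt1 (0.47, adjusted p = 0.00467), the corepressor Ncor1 (-0.35, adjusted p = 0.0112) and the parts of its complex Hdac3 (-0.34, adjusted p = 0.0135) and Tbl1x (-0.40, adjusted p = 0.0176). Nrip1 (0.46, adjusted p = 0.0348) and Hsp90aa1 (-0.54, adjusted p = 0.0465), named after their values were seen, were the others, and the call of Nrip1 was lost in 8 of the 12 fits without 1 liver and that of Hsp90aa1 in 9.

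Markers of other cells and clock genes were counted in the same comparison, in which 11.4% of all genes were called higher and 10.3% lower. Macrophage markers summed to 58.5 to 188 TPM in Het and 91.6 to 289 TPM in KO livers, with 4 of 10 called higher and 0 lower. Endothelial markers summed to 36.6 to 90.5 and 35.4 to 56.8 TPM, with 4 of 8 called lower, and stellate cell markers to 48.8 to 109 and 37.9 to 72.1 TPM, with 2 of 9 called lower. Adipocyte markers summed to 0.220 to 4.11 TPM in Het and 0.586 to 3.69 TPM in KO livers, with at most 1 count of Adipoq in any liver. Of the hepatocyte markers 1 of 10 was called higher and 1 lower. Over the 17 clock genes tested the median difference was -0.09 on the log2 scale. Of them 2 were higher (Cry2 at 1.26, adjusted p = 0.0120, and Nfil3 at 1.23, adjusted p = 0.0200) and 1 was lower (Hlf at -0.88, adjusted p = 0.00645). Cry2 and Nfil3 were highest in KO_F_108 and KO_F_112. Bmal1 and Dbp, named after their values were seen, moved in opposite directions, so the median says little about clock phase. In KO livers Bmal1 was at 3.38 to 23.7 CPM and Dbp at 12.03 to 102.7 CPM (Het values are given above). Without single livers their log2 fold changes were 1.35 to 2.995 and -1.69 to -1.07. Each missed the edgeR threshold in 11 of those 12 fits, and the lowest adjusted p was 0.00424 for Bmal1 and 0.00204 for Dbp. Beside the Het livers other than Het_F_115, every KO liver had more Bmal1, and all but KO_M_118 had less Dbp. In the KO livers other than KO_M_118, Dbp was at 12.03 to 46.0 CPM. The part of cell composition and of sampling time in the receptor differences was not tested, and humane endpoint and genotype cannot be told apart, because every KO mouse was taken at that endpoint.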

How the data were processed

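Stranded total RNA of 12 livers was measured. The authors processed reads with nf-core/rnaseq, aligned them with STAR 2.7.9a to GRCm39 (GENCODE M34) and quantified genes with Salmon 1.10.1. They deposited expected counts (estimated counts per gene, of which 12.0% were not whole), rebuilt count tables and TPM, which keeps no depth. The authors' estimated counts were rounded here, and 30044812 to 43634073 counts per liver were assigned to genes. Groups came from the labels' genotype and sex.

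Libraries were scaled by TMM, and genes with at least 5 reads (at the median library size) in at least 3 livers were tested, 19355 of 57180. edgeR 4.0.16 (R 4.3.3) fitted 4 group means with robust quasi-likelihood and a prior count of 2. Calls are Benjamini-Hochberg adjusted p under 0.05 over all genes. The standard errors given with edgeR values were derived from its test. Each is the absolute log2 fold change divided by the square root of the F statistic. The labels do not say whether mice shared litters, so p-values measure the spread between these mice. Alternatives were DESeq2 1.42.0, limma 3.58.1 on log2(TPM + 1) and log2(TPM + 0.1), other scaling and filters, length-scaled estimated counts, an additive model, single-sex or single-genotype fits and leaving out each liver. The table of counts scaled to library size only was not used.

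The genes and lists were chosen with earlier results of these data known. From each list, the text names the 4 called genes of smallest p and preset classical targets, and other names are marked as chosen after their values were seen. Some genes that this rule names are not reported here. Gene positions come from GENCODE M39. CPM was used within a gene and TPM between genes.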

Additional observations from a re-analysis of the deposited data

Results flagged for a closer look

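Among the 10 genes in 6 livers of each genotype (20 groups of values on the log2 CPM scale, of which chance flags about 1 in 20), 2 livers lay far from the rest by Dixon's criterion. For Nr1h4 in KO livers, KO_F_108 was at 25.4 CPM, and its gap to the nearest liver was 0.8 of the whole range. For Ppara in Het livers, Het_F_115 was at 131 CPM, with a gap of 0.65 of the range. Het_F_115 was also the liver with the lowest Dbp and the highest Bmal1 among the Het livers. Both calls held without the liver concerned, at a log2 fold change of -0.90 for Nr1h4 without KO_F_108 and -1.49 for Ppara without Het_F_115.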

How the results depend on the processing

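No paired analysis was possible because the groups share no replicate numbers. Nr1h4, Nr1h3 and Ppara were called in all 21 alternatives for both sexes, Rxra in 15 and Nr0b2 in 13, and Ppargc1a in 4. The number of the 10 genes called was 5 for both sexes (5 to 6 over tools, scalings and filters, 3 to 5 without single livers), 3 in females (1 to 3 without single livers) and 3 in males (0 to 3). In females it was 0 with only the 6 females fitted and 1 (Nr1h4) without Het_F_126 or KO_F_108. In males it was 0 without Het_M_119, Het_M_125, Het_M_137 or KO_M_136 and 1 without KO_M_118 (Ppara) or KO_M_122 (Nr1h3). These fits have fewer livers, so the calls within 1 sex rest on few mice. No called gene changed sign. Over all genes, calls numbered 4199 for both sexes (2959 to 5045 over the alternatives), 1903 in females (423 to 3190), 1339 in males (487 to 2272), 9 for the interaction (4 to 172), 160 between sexes in Het livers (87 to 550) and 11 in KO livers (0 to 315). The all-gene median stayed between -0.003 and 0.033.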
